A study of Mus musculus with 12 samples.

Results

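The 10 apolipoprotein genes Apoa1, Apoa2, Apoa4, Apoa5, Apob, Apoc1, Apoc2, Apoc3, Apoe and Apoh were followed in mouse liver by Ribo-seq, which sequences the RNA fragments that ribosomes protect and so counts ribosome footprints per gene. The rule that selects them is their gene symbol, and they make up 10 of the 25029 entries of the Ribo-seq table that have a name of their own. Male C57BL/6 mice, 16 weeks old at sampling, had received a high-fat diet alone for the last 8 weeks (HFD, n = 3 libraries) or the same diet with lycopene at 0.33% of the feed by weight (LYC, n = 3 libraries). Both groups were therefore on the high-fat diet, and mice on standard feed were not analysed here. The LYC samples carry a treatment label that names the high-fat diet only, so their lycopene rests on the sample titles and the study's methods. The labels speak of pooling material within the groups ahead of making the libraries, while the study calls the libraries biological replicates. If libraries share animals, the p-values below measure only the spread between libraries.

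Apolipoproteins are the protein part of the particles that carry lipid in blood, and the liver is their main source. Apob is the scaffold on which the hepatocyte builds very-low-density lipoprotein (VLDL), while Apoa1 and Apoa2 are the chief proteins of high-density lipoprotein (HDL). The small exchangeable proteins move between particles. Apoe is a ligand for hepatic uptake of remnants, Apoc2 is the cofactor of lipoprotein lipase, Apoc3 and Apoc1 slow lipolysis or the uptake of remnants, and Apoa5 favours lipolysis. Apoa4 is a lipid-binding protein of triglyceride-rich particles and HDL, and Apoh (beta-2-glycoprotein I) is a plasma protein that binds anionic phospholipid.

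The Ribo-seq libraries differed in depth. Values were deposited as RPKM, which divide the reads of a gene by its length and by the library total, and whole reads were worked back from them, as the lowest values rise in steps of 1 read. The totals were 834410 to 4405541 reads in HFD and 311050 to 412116 reads in LYC, and 1 read on a gene of 1 kb was worth 0.227 to 1.2 RPKM in HFD and 2.43 to 3.21 RPKM in LYC. Each of the 10 genes had at least 39 reads in every library, so all 10 passed the filter on low values. Of the 8 hepatocyte markers (Alb, Ttr, Trf, Ahsg, Serpina1a, Tat, Cps1 and Hpx), all were present, and their summed level was 45012 to 49676 RPKM in HFD and 28644 to 37527 RPKM in LYC. By the rule for calls given below, Tat and Cps1 were higher in LYC and Hpx was lower. Of 8 enterocyte markers, Lct, Alpi, Sis, Cdx2 and Cdh17 were at 0 in all 6 libraries, and Vil1 was at 0 in all but HFD2 (0.0728 RPKM). Their summed level of 145 to 218 RPKM in HFD and 259 to 418 RPKM in LYC was that of Fabp2 and Anpep, which liver also makes, and Fabp2 was called higher (log2 fold change 1.21). The 7 cholangiocyte markers summed to 16.1 to 26.1 RPKM in HFD and 2.89 to 9.25 RPKM in LYC, with Krt19, Krt7, Epcam, Cftr and Tspan8 at 0 in all LYC libraries. Of 5 erythroid markers, summing to 632 to 1432 RPKM in HFD and 847 to 989 RPKM in LYC, Alas2 was called higher. The part of these in the results was not tested. Fewer hepatocytes and less RNA per hepatocyte cannot be told apart in such libraries.

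A second table, labelled mRNA, holds counts for 3 HFD and 3 LYC libraries. Its counts lay within 5% of the recovered Ribo-seq reads for 72.8% to 85.2% of the genes with at least 20 reads in the best matching Ribo-seq library, against at most 10.8% for any other pair. The LYC libraries matched the Ribo-seq library of their own number, but those labelled HFD1, HFD2 and HFD3 matched Ribo-seq HFD2, HFD3 and HFD1. The 2 tables therefore hold nearly the same counts for most genes with at least 20 reads. Their totals differ, with 582184 to 687242 reads in the LYC libraries of the second table against 311050 to 412116 in Ribo-seq. The second table is not an independent measure of transcript level, and no translational efficiency was computed.

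The genes lie in 5 places of the GRCm38 genome (GENCODE M21). Apoa1 (ENSMUSG00000032083, chr9:46228580-46230466, plus strand), Apoc3 (ENSMUSG00000032081, chr9:46232933-46235636, minus strand), Apoa4 (ENSMUSG00000032080, chr9:46240696-46243459, plus strand) and Apoa5 (ENSMUSG00000032079, chr9:46268633-46271919, plus strand) share a stretch of 43340 bases. Apoe (ENSMUSG00000002985, chr7:19696109-19699188), Apoc1 (ENSMUSG00000040564, chr7:19689481-19692660) and Apoc2 (ENSMUSG00000002992, chr7:19671579-19677941) share 27610 bases, all on the minus strand. Apoa2 (ENSMUSG00000005681, chr1:171225054-171226379), Apob (ENSMUSG00000020609, chr12:7977648-8016835) and Apoh (ENSMUSG00000000049, chr11:108343354-108414396) each lie alone, on the plus strand. Apoc2 overlaps the annotated gene Gm44805 on its own strand and Apoh overlaps Gm11656, while Gm10680, Gm47528, Gm47544 and Prkca overlap Apoa4, Apoa5 or Apoh on the other strand. Whether the counting used strand is not given in the sources used here, so reads there could be split or shared. The coding part runs from 264 bases in Apoc1 to 13515 bases in Apob, without the stop codon.

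To show the start regions behind the 3 highest footprint levels of HFD liver, the windows from 250 bases before to 50 bases after the first listed RefSeq start are given for Apoa2 (chr1:171224804-171225103, plus strand), Apoe (chr7:19699139-19699438, minus strand) and Apoa1 (chr9:46228380-46228679, plus strand), on GRCm38.p6. Capitals mark TATAAA (printed strand, at any distance from the start) and, on either strand, AGGTCA (the repeated unit of many nuclear receptor sites) and CAAAG (letters of the Hnf4a consensus), written CTTTG when read on the other strand.
Apoa2: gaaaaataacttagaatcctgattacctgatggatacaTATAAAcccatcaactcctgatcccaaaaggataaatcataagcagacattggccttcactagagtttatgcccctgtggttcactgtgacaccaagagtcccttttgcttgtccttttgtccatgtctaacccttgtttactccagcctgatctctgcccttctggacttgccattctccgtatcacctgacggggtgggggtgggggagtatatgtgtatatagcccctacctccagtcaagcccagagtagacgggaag
Apoe: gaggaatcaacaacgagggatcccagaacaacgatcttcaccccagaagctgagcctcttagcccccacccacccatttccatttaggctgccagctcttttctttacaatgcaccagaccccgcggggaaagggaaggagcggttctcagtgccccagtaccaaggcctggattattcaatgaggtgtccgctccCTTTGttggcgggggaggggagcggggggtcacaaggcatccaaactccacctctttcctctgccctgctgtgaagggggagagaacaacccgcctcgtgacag
Apoa1: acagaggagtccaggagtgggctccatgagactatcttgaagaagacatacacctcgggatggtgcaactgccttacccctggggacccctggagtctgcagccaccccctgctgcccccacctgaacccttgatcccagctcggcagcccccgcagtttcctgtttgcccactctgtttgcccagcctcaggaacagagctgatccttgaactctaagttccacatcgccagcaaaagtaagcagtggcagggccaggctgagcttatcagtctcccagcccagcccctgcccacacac

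Of the 10 genes, 8 had a window in the table, and Apoc1 and Apoc3 had none. TATAAA on either strand was in 3 of 8 windows (Apoa2, Apoa5 and Apob), against 14.2% of 27025 windows of the same length. AGGTCA on either strand was in 2 of 8 (Apoc2 and Apoh), against 16.0%. CAAAG on either strand was in 6 of 8 (Apoa4, Apoa5, Apob, Apoc2, Apoe and Apoh), against 54.0%. The Apoa1 window held none of these letters. These are matches of letters and not measured binding.

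The comparison of LYC with HFD asks whether the footprints of these genes changed when lycopene was added to the high-fat diet. None of the 10 genes was called in either direction, and the estimates were spread around 0, with 4 genes at a higher mean log2 value in LYC (Apoc1, Apoa1, Apoc2 and Apoa4) and 6 at a lower one (Apoe, Apoh, Apob, Apoa5, Apoa2 and Apoc3). Apoc1, a small protein that hinders remnant uptake, lay highest at a log2 fold change of 0.85, and Apoe, the ligand for remnant uptake, lay lowest at -0.75. The test was limma's moderated test, two-sided, on log2(RPKM / TMM factor + 1), where the TMM factor (trimmed mean of M-values, from edgeR) puts libraries on 1 scale, and it covered 5781 genes. A gene counted as called where its log2 fold change was above 1 or below -1 with an unadjusted p under 0.01. By this rule 0 of 10 genes were called higher, against 6.9% of all genes tested, and 0 of 10 were called lower, against 6.4%. By the other rule used, limma with a Benjamini-Hochberg adjusted p below 0.05, 0 of 10 were higher, against 6.45%, and 0 of 10 were lower, against 5.07%. At an unadjusted p below 0.05 limma gave 1 of 10, Apoc1, against 29.9% of all genes tested in either direction. On the recovered reads edgeR and DESeq2 each gave 1 of 10 genes at an adjusted p below 0.05, again Apoc1, against 16.6% and 18.9% of all genes tested in either direction. The median log2 fold change was -0.22 over the 10 genes and -0.10 over all genes tested, against -0.51 and -0.36 with total reads as the scale and -0.38 and -0.03 with the trend with transcript length removed. The 95% intervals reached from -1.58 (the lower end for Apoe) to 1.43 (the upper end for Apoc1), and changes inside a gene's interval were not resolved with 3 libraries a group.

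**Figure D1:**
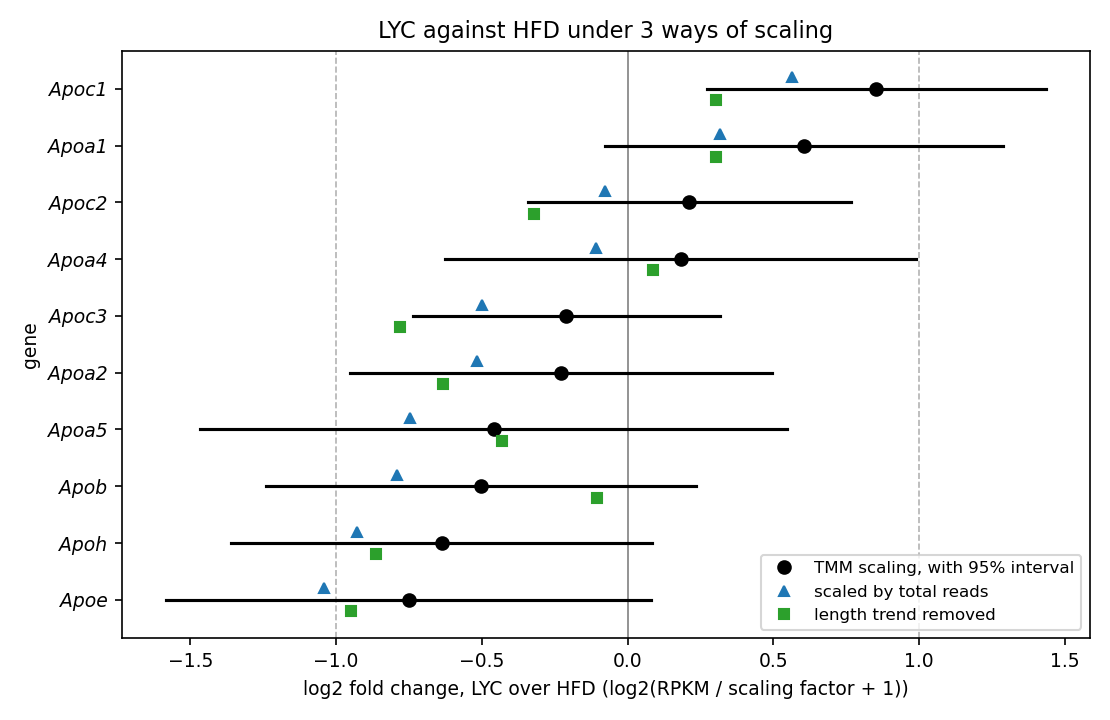
Log2 fold change of LYC over HFD for each gene (x axis, on log2(RPKM / scaling factor + 1)), with black points and 95% intervals from limma after TMM scaling, blue triangles after scaling by total reads and green squares after the trend with transcript length was removed. Only the interval of Apoc1 leaves out 0, no black point passes the dashed lines at -1 and 1, and Apoc2 changes side under both other scalings.

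The groups of libraries did not overlap for 6 genes after TMM scaling. Apoa1 and Apoc1 were higher in every LYC library than in every HFD library, which is 2 of 10 genes against 18.6% of all genes tested. Apoa2, Apoc3, Apoe and Apoh were lower in every LYC library, which is 4 of 10 against 19.2%. In the deposited RPKM, before that scaling, 2 of 10 were higher without overlap, against 9.88% of the same genes, and with Apob 5 of 10 were lower, against 27.5%. These 6 genes had p = 0.1 in a two-sided exact permutation test, the least that 3 against 3 libraries allow.

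The family spanned a wide range of levels. In HFD liver Apoa2 had 15462 ± 2112 RPKM (SD, n = 3) and ranked 4 among 20498 protein-coding genes listed. Apoe followed with 12272 ± 3514 RPKM at rank 5, and Apoa1 with 4081 ± 436 RPKM at rank 10. The ranges of Apoa2 and Apoe overlapped in HFD, while Apoa1 lay below both. A middle group came next, with Apoc1 at 1824 ± 99.8, Apoc3 at 1665 ± 186, Apoh at 1326 ± 234 and Apob at 988 ± 245 RPKM (± SD, 3 libraries each), in which each neighbour overlapped the next. The lowest were Apoa4 at 368 ± 76.0, Apoa5 at 285 ± 24.7 and Apoc2 at 246 ± 31.4 RPKM (± SD, 3 libraries each), again with overlapping neighbours. A gap without overlap separated Apoa1 from Apoc1 and Apob from Apoa4.

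In LYC liver the order was the same down to Apoa4, while Apoc2 (232 ± 18.7 RPKM) stood above Apoa5 (192 ± 113 RPKM) with overlapping ranges. Apoe (5892 ± 1189 RPKM) now overlapped Apoa1 (5061 ± 224 RPKM), from which it had been apart in HFD, and Apoc1 (2709 ± 343 RPKM) stood apart from Apoc3 (1176 ± 122 RPKM), with which it had overlapped (± SD, 3 libraries each). RPKM divides by the whole transcript length, while translating ribosomes are on the coding part. Recovered reads divided by the coding length instead were an alternative chosen after seeing the data. Apoa2 was at 38907 ± 5315 in HFD on this scale (± SD, 3 libraries). Its recovered reads may be doubled, as the second table gave 0.501 to 0.513 times as many, and this value with them. Apoc1 was at 3828 ± 210 in HFD, and Apoa5 (650 ± 56.4) stood above Apoa4 (518 ± 107), with overlapping ranges (± SD, 3 libraries each). On that scale Apoe stayed apart from Apoa1 in LYC and Apoc1 from Apoc3 in HFD, so these changes of overlap hold for transcript length only. Apoc3 was also apart from Apoh in HFD by coding length. Apoa2 was apart from Apoe there only with the recovered reads that may be doubled. In LYC Apoa1 then overlapped Apoc1.

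**Figure D2:**
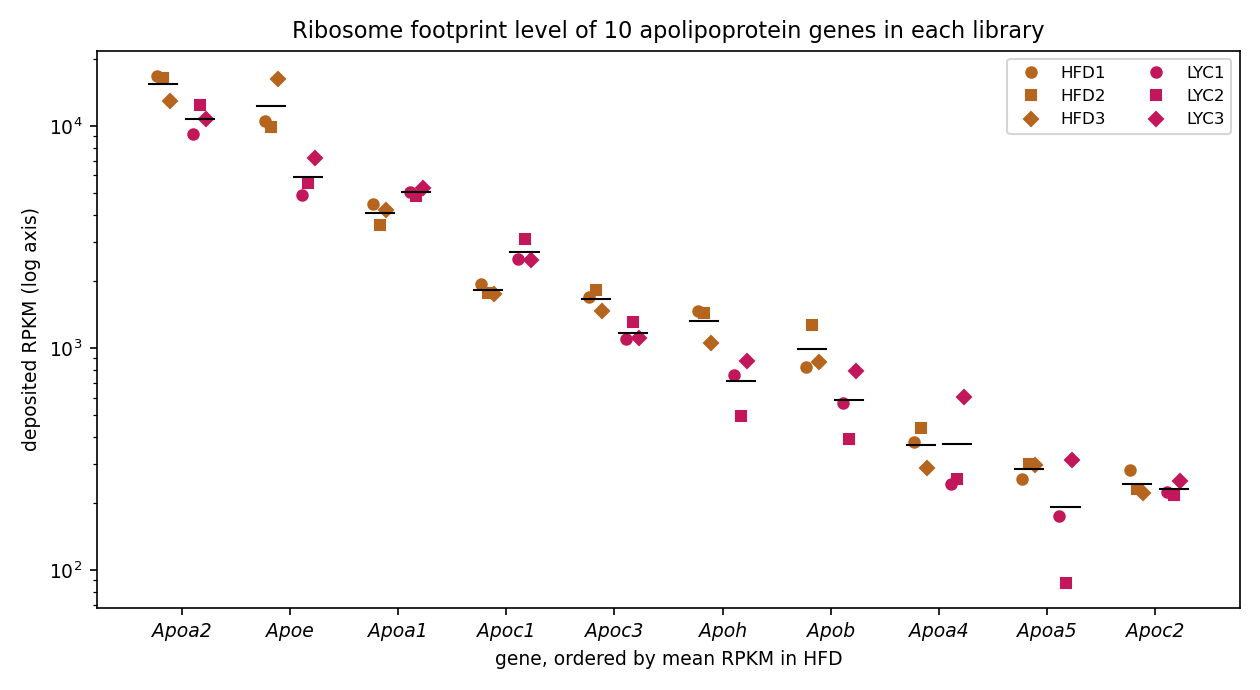
Deposited RPKM of the 10 genes (log y axis) in the 3 HFD and 3 LYC Ribo-seq libraries, ordered along the x axis by mean level in HFD, with black bars for group means. Apoa2, Apoe and Apoa1 stand above the rest, Apoa1 and Apoc1 sit higher in LYC, and the LYC libraries of Apoa4 and Apoa5 are far apart.

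Apob, which each VLDL particle carries as its backbone, had 826, 1270 and 867 RPKM in HFD1, HFD2 and HFD3 and 566, 390 and 791 RPKM in LYC1, LYC2 and LYC3. The LYC libraries lay below the HFD libraries, but LYC3 was close to HFD1. After TMM scaling HFD was at 793, 1005 and 844 and LYC at 709, 388 and 858, so that LYC3 passed HFD1 and HFD3. Its estimate was a log2 fold change of -0.50 with SE 0.32 (limma, Benjamini-Hochberg adjusted p = 0.332, 95% interval -1.24 to 0.23). It drew 1688 to 77812 reads per library. Its estimate was -0.10 once the trend with transcript length was removed and -0.17 without LYC2, but -0.79 with total reads as the scale and -0.77 without LYC3.

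The estimates of the chief HDL proteins pointed in opposite directions. Apoa1, which also activates the enzyme that esterifies cholesterol on HDL, had 4462, 3606 and 4176 RPKM in HFD and 5052, 4842 and 5290 RPKM in LYC. Every LYC library was above every HFD library, and after TMM scaling LYC was 1.51 times HFD by the means. The log2 fold change of Apoa1 was 0.60 with SE 0.30 (limma, Benjamini-Hochberg adjusted p = 0.215, 95% interval -0.08 to 1.29), or 0.32 with total reads as the scale. Apoa2 had 16810, 16547 and 13027 RPKM in HFD and 9199, 12517 and 10752 RPKM in LYC, with each LYC library below each HFD library. TMM scaling narrowed that gap to 12683 (the lowest HFD library) against 12444 (the highest LYC library), and the log2 fold change of Apoa2 was -0.23 with SE 0.32 (limma, Benjamini-Hochberg adjusted p = 0.663, 95% interval -0.95 to 0.50), or -0.52 with total reads as the scale and -0.63 with the length trend removed. The second table gave Apoa2 0.501 to 0.513 times the recovered reads of the matching libraries. Those reads rest on a fitted length of 770 bases and are even in every library, so they may be doubled. The deposited RPKM do not depend on this.

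Apoe, a ligand for the uptake of remnants, had 10605, 9902 and 16308 RPKM in HFD and 4911, 5551 and 7215 RPKM in LYC. All LYC libraries were below all HFD libraries, and HFD3 stood high. After TMM scaling the nearest libraries almost touched, with 7837 in HFD2 and 7827 in LYC3, and the LYC mean was 0.575 times the HFD mean. For Apoe the log2 fold change was -0.75 with SE 0.37 (limma, Benjamini-Hochberg adjusted p = 0.206, 95% interval -1.58 to 0.08). Scaled by total reads it was -1.04 (limma, adjusted p = 0.0667), without HFD3 it was -0.48 (limma, adjusted p = 0.503), and its adjusted p ranged from 0.0596 to 0.503 over the 17 alternatives.

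Apoc1 lies next to Apoe, with 3448 bases between the genes, and its estimate pointed the other way. It had 1939, 1770 and 1763 RPKM in HFD and 2530, 3105 and 2492 RPKM in LYC, from 815 to 4320 and from 535 to 569 reads. Each LYC library was above each HFD library, and the LYC mean was 1.80 times the HFD mean after TMM scaling. Its estimate was a log2 fold change of 0.85 with SE 0.26, and limma gave an unadjusted p of 0.0091 and a Benjamini-Hochberg adjusted p of 0.0648 (95% interval 0.27 to 1.43). The fold was thus below the limit of a call and the adjusted p above 0.05. Of 17 alternatives, 3 brought the adjusted p of Apoc1 below 0.05, namely edgeR (0.0367) and DESeq2 (3.99e-04) on the recovered reads and limma on the genes with at least 20 reads in every library (0.0287). It was highest, at 0.394 in limma, with the length trend removed, where the log2 fold change was 0.30. With total reads as the scale the log2 fold change of Apoc1 was 0.56 (limma, adjusted p = 0.181).

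Transcript length, the divisor of RPKM, moved with the comparison as a whole. The median log2 fold change was 0.59 over the 490 tested genes with transcripts shorter than 1000 bases, 0.07 over the 1112 genes of 1000 to 2000 bases, -0.11 over the 2089 of 2000 to 4000 bases and -0.27 over the 2090 longer ones. By the lengths used, Apoc1 (554 bases), Apoc2 (574), Apoc3 (527), Apoa2 (770) and Apoa1 (988) are in the shortest class, in which their own median was 0.21. The lengths of Apoa2, Apoc2 and Apoc3 were fitted, against 865, 727 and 631 bases in the second table. The removal of the length trend used the fitted ones. With the length trend removed, Apoc1 and Apoa1 were both at a log2 fold change of 0.30.

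Apoc2 and Apoc3 act on lipoprotein lipase from opposite sides, as cofactor and inhibitor. Apoc2 had 282, 232 and 223 RPKM in HFD and 225, 218 and 254 RPKM in LYC, from only 39 to 60 reads in the LYC libraries. The groups overlapped, and the log2 fold change of Apoc2 was 0.21 with SE 0.24 (limma, Benjamini-Hochberg adjusted p = 0.589, 95% interval -0.34 to 0.77). Its direction turned to -0.08 with total reads as the scale and to -0.32 with the length trend removed. Apoc3 had 1698, 1833 and 1464 RPKM in HFD and 1102, 1318 and 1110 RPKM in LYC, all LYC libraries being lower. After TMM scaling the gap shrank to 1426 in HFD3 against 1380 in LYC1, and the log2 fold change of Apoc3 was -0.21 with SE 0.23 (limma, Benjamini-Hochberg adjusted p = 0.568, 95% interval -0.74 to 0.32). With the length trend removed it was -0.78 (limma, adjusted p = 0.0507, in a range of 0.0507 to 0.805 over the alternatives). It was -0.50 with total reads as the scale and -0.42 with totals that leave out small non-coding RNA genes.

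Apoa5, which promotes lipolysis on the vessel wall, had 257, 300 and 299 RPKM in HFD and 175, 88.1 and 312 RPKM in LYC, with 174, 69 and 324 reads in LYC1, LYC2 and LYC3. LYC3 lay above all HFD libraries and LYC2 far below them. Its estimate was a log2 fold change of -0.46 with SE 0.44 (limma, Benjamini-Hochberg adjusted p = 0.516, 95% interval -1.47 to 0.55), and without LYC2 it was 0.08. The estimate for Apoa5 was -0.92 without LYC3 and -0.75 with total reads as the scale. Apoa4, its neighbour on chromosome 9, had 378, 439 and 288 RPKM in HFD and 245, 259 and 603 RPKM in LYC. LYC3 was again the highest of the 6 libraries, while LYC1 and LYC2 were the lowest in the deposited values. The log2 fold change of Apoa4 was 0.18 with SE 0.36 (limma, Benjamini-Hochberg adjusted p = 0.768, 95% interval -0.63 to 0.99), and it was -0.25 without LYC3, -0.11 with total reads as the scale and -0.03 with totals that leave out small non-coding RNA genes.

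Apoh had 1478, 1444 and 1057 RPKM in HFD and 755, 496 and 876 RPKM in LYC, each LYC library being below each HFD library. After TMM scaling the lowest HFD library was at 1029 and the highest LYC library at 950. For Apoh the log2 fold change was -0.64 with SE 0.32 (limma, Benjamini-Hochberg adjusted p = 0.217, 95% interval -1.36 to 0.09). It was -0.32 without LYC2, -0.93 with total reads as the scale and -0.86 with the length trend removed.

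The 10 genes differed in how far the LYC libraries lay apart. For Apoa5, Apoa4, Apob and Apoh the highest LYC library was 3.87, 2.54, 2.21 and 1.93 times the lowest after TMM scaling, against 1.23, 1.30, 1.27 and 1.38 times in HFD. For Apoa2, Apoc3 and Apoc1 the same ratio in LYC was 1.08, 1.15 and 1.17. LYC2 was the lowest LYC library for 7 of the 10 genes and LYC3 the highest for 5, while LYC2 was lowest for 35.4% and LYC3 highest for 33.3% of all genes tested. The SD of the log2 values was larger in LYC than in HFD for 4 of the 10 genes, and for 62.1% of the 330 tested genes that are at least as high as the lowest of the 10, while it was so for 83.7% of all 5781 genes tested. Markers of sinusoidal endothelial cells also differed between these libraries, with a summed level of 46.2 RPKM in LYC2 and 177 RPKM in LYC3 and 95.3 to 136 RPKM in HFD over all 9 markers, none of them at 0 in all libraries. Of the 8 hepatocyte markers, Alb, Trf, Serpina1a and Hpx were lower in LYC2 than in LYC3 in deposited RPKM, and Ttr, Ahsg, Tat and Cps1 were higher. The part of these differences in the spread of the 4 genes was not tested.

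**Figure D3:**
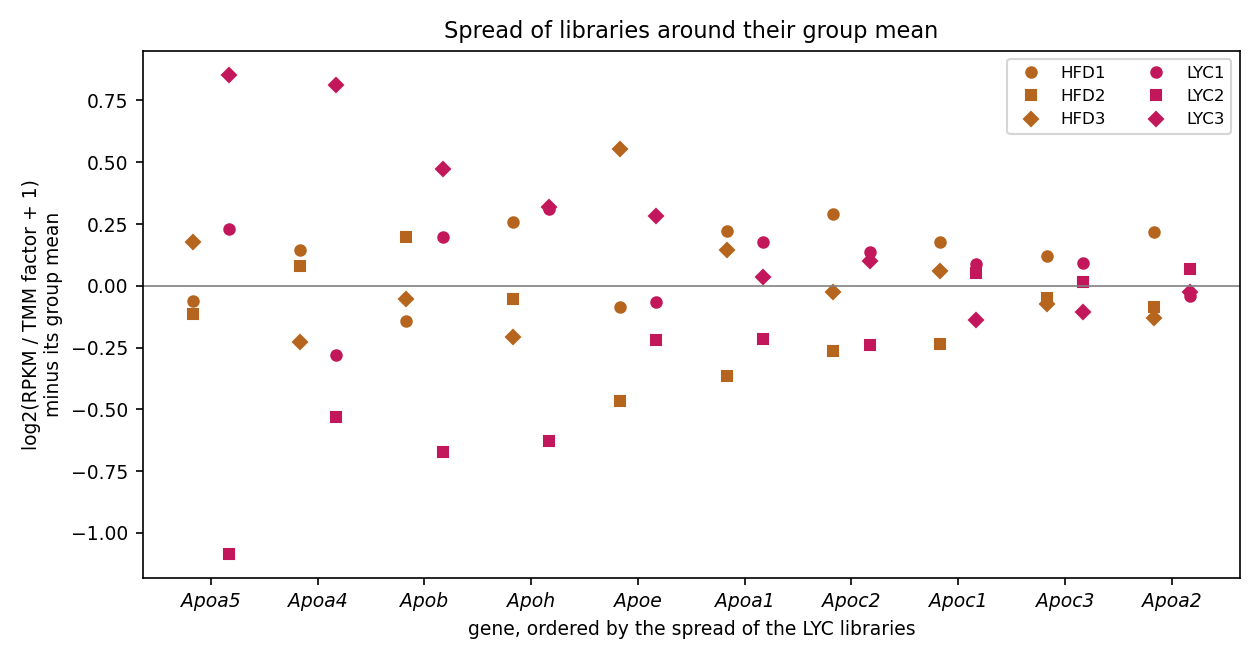
Distance of each library from its group mean (y axis, log2(RPKM / TMM factor + 1)) for the 10 genes, ordered by the spread of the LYC libraries. LYC2 lies lowest and LYC3 highest for Apoa5, Apoa4, Apob and Apoh, while the LYC libraries of Apoc1, Apoc3 and Apoa2 lie close together.

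The likeness of the genes over the 6 libraries is given as a description, without a test. Pearson's r of the scaled log2 levels was 0.92 for Apoa5 with Apob, 0.87 for Apob with Apoh and 0.81 for Apoa5 with Apoh, while Apoa4 had 0.63 with Apoa5, 0.48 with Apob and 0.34 with Apoh. Apoa1 and Apoc1 had r = 0.90, and Apoa2 and Apoc3 had r = 0.86. These points share libraries, depth and scaling factors. Of the genes grouped on chromosome 7, Apoe with Apoc1 had r = -0.66 and Apoc1 with Apoc2 r = 0.60. Of those on chromosome 9, Apoa1 with Apoc3 had r = -0.49, Apoc3 with Apoa4 r = -0.41 and Apoa4 with Apoa5 r = 0.63.

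The makeup of the family can be read without scaling between libraries, since all its genes are divided by the same factor within a library. A trend with transcript length does not cancel in this way, and the shares and ratios below were not corrected for it. Apoc1 made up 5.01%, 4.74% and 4.47% of the summed RPKM of the 10 genes in HFD1, HFD2 and HFD3 and 10.2%, 10.8% and 8.39% in LYC1, LYC2 and LYC3. Apoa1 made up 10.6% ± 0.931 in HFD and 18.3% ± 1.85 in LYC (± SD, 3 libraries each), also without overlap. The share of Apoe was 31.7% ± 8.31 in HFD and 21.1% ± 2.75 in LYC (± SD, 3 libraries each), with each LYC library lower. The small share of Apoc2 was higher in every LYC library as well, at 0.639% ± 0.0820 in HFD against 0.841% ± 0.0763 in LYC (± SD, 3 libraries each). The shares of the other 6 genes overlapped, and Apoa2 stayed the largest in 5 libraries, with 40.2% ± 6.28 in HFD and 38.9% ± 3.96 in LYC (± SD, 3 libraries each). In the RPKM of the second table, which takes a length of 865 bases for Apoa2, Apoe was above Apoa2 in all 3 HFD libraries and in LYC1 and LYC3. Shares add up to a fixed whole, so they are not independent of each other.

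**Figure D4:**
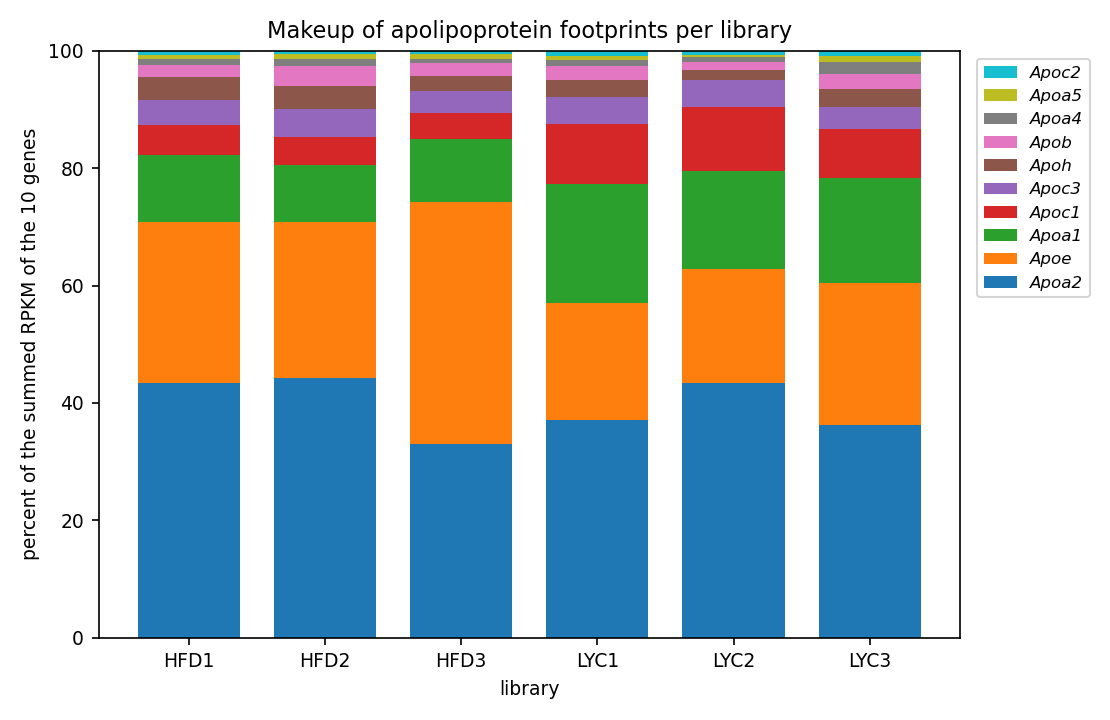
Share of each gene in the summed RPKM of the 10 apolipoprotein genes (y axis, percent) in each Ribo-seq library. Apoa1 and Apoc1 take wider bands in the LYC libraries and Apoe a narrower one, while Apoa2 keeps a band of 33.0% to 44.3%.

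The summed level of the 10 genes was 38518 ± 1082 RPKM in HFD and 27746 ± 2626 RPKM in LYC (± SD, 3 libraries each), a ratio of 0.720, and none of the LYC libraries reached an HFD library. The ratio was 0.873 after TMM scaling, where LYC1 (31009) and LYC3 (32213) were above HFD2 (29554). The summed level of the 8 hepatocyte markers, given above, was also lower in the deposited RPKM of all LYC libraries, although Tat and Cps1 were each higher there and Serpina1a overlapped. Genes of small non-coding RNA took 2.46% to 3.92% of the reads in HFD and 8.4% to 12.9% in LYC. The part of both in the summed level was not tested.

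Ratios of 2 genes within a library were compared for 8 pairs, chosen after the values were seen. Apoe over Apoc1 was 5.47, 5.59 and 9.25 in HFD and 1.94, 1.79 and 2.90 in LYC, so the HFD mean was 3.07 times the LYC mean and the libraries did not overlap. Apoa2 over Apoa1 was 3.77, 4.59 and 3.12 in HFD and 1.82, 2.59 and 2.03 in LYC, a difference of 1.78 times. Apob over Apoa1, which sets the VLDL scaffold beside the HDL protein, was 0.185, 0.352 and 0.208 in HFD and 0.112, 0.0806 and 0.150 in LYC. Apoc3 over Apoa1 and Apoc2 over Apoc1 were also lower in every LYC library. Apoc3 over Apoc2, inhibitor over cofactor of lipoprotein lipase, overlapped, with 6.82 ± 0.956 in HFD and 5.10 ± 0.848 in LYC (± SD, 3 libraries each). Apoa4 over Apoa1 and Apoa5 over Apob overlapped too. As the pairs were picked for these values, no test of them is given.

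**Figure D5:**
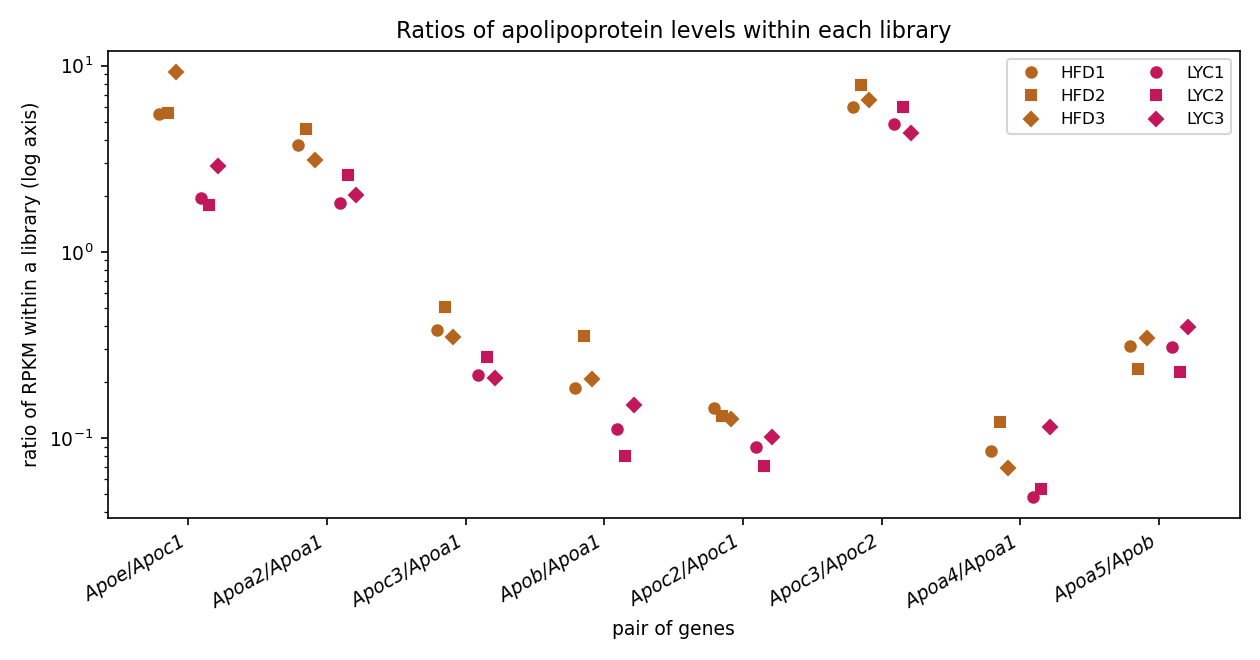
Ratio of the RPKM of 2 genes within a library (log y axis) for 8 pairs, with HFD in brown and LYC in red. The LYC libraries lie below all HFD libraries for the first 5 pairs and overlap them for the last 3.

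The gene with the largest estimate, Apoc1, was compared with all genes tested by Pearson's r of the scaled log2 levels over the 6 libraries. The most alike were Myl12a (r = 0.994), Rexo2 (r = 0.989), Dancr (r = 0.988), Hsp90aa1 (r = 0.988) and Scarna13 (r = 0.988), a list that holds no apolipoprotein. Their log2 fold changes were 0.90, 1.08, 3.25, 1.89 and 2.82. With 6 libraries in 2 groups, such values mainly show that a gene was higher in LYC.

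Among 20 other apolipoprotein genes listed, 10 passed the filter, 0 were called in either direction (against 6.9% higher and 6.4% lower of all genes tested), and 1 passed the adjusted p below 0.05, namely Apoc4, which was lower (against 5.07%). At an unadjusted p below 0.05 limma gave 4 of the 10, against 29.9% of all genes tested, and on the recovered reads edgeR and DESeq2 called 0 and had 1 and 2 at an adjusted p below 0.05, against 16.6% and 18.9% of all genes tested. The median log2 fold change of these 10 was -0.38. Apoc4, the neighbour of Apoc2 on chromosome 7, had 831, 1028 and 935 RPKM in HFD and 411, 434 and 454 RPKM in LYC, without overlap, and fell by 0.81 on the log2 scale (SE 0.22, limma, Benjamini-Hochberg adjusted p = 0.0481). With HFD1, HFD2 or HFD3 left out, Apoc4 no longer passed an adjusted p of 0.05. Then 0 genes of this list or of the lists below were lower at that limit. Clu, an extracellular chaperone also known as apolipoprotein J, was at 713 ± 36.4 RPKM in HFD and 399 ± 40.1 in LYC (± SD, 3 libraries each), with a log2 fold change of -0.55 (limma, adjusted p = 0.164). Apon was at 213 ± 36.5 RPKM in HFD and 108 ± 21.1 in LYC (± SD, 3 libraries each), with a log2 fold change of -0.69 (limma, adjusted p = 0.0969).

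The genes that serve the apolipoproteins were counted against the same background, 6.9% of all genes tested called higher and 6.4% called lower. Of 13 tested genes of lipoprotein assembly and editing, 1 was called higher and 1 lower, with a median log2 fold change of 0.00. Sec23a, a coat protein of the vesicles that leave the endoplasmic reticulum, rose from 27.2 ± 5.05 to 53.6 ± 16.8 RPKM (± SD, 3 libraries each, log2 fold change 1.20, limma, adjusted p = 0.0284). Pla2g12b, which hepatocytes need to load VLDL with lipid, fell from 48.4 ± 5.63 to 12.9 ± 12.4 RPKM (± SD, 3 libraries each, log2 fold change -1.92, limma, adjusted p = 0.0442) on 3, 9 and 2 reads in the LYC libraries. The other 11, Mttp (microsomal triglyceride transfer protein) among them at a log2 fold change of -0.16, passed neither rule. Of 13 tested genes of lipoprotein remodelling and lipase control, 1 was called higher and 0 lower (median -0.11). That gene, Angptl4, an inhibitor of lipoprotein lipase, rose from 20.5 ± 3.00 to 58.7 ± 17.9 RPKM (± SD, 3 libraries each, log2 fold change 1.72, limma, adjusted p = 0.0109).

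Of 12 tested lipoprotein receptors and cholesterol efflux genes, 0 were called higher and 1 lower (median -0.24). It was Scarb1, the HDL receptor that takes up cholesteryl ester, with 82.8, 127 and 103 RPKM in HFD and 40.5, 22.0 and 28.8 RPKM in LYC (log2 fold change -1.48, SE 0.32, limma, adjusted p = 0.0233). Of 20 tested regulators of hepatic apolipoprotein genes, 1 was called higher and 3 lower (median -0.53, against -0.10 over all genes tested), and 11 had an unadjusted p below 0.05 in limma, against 29.9% of all genes. On the recovered reads edgeR and DESeq2 had 4 and 5 of these 20 at an adjusted p below 0.05, against 16.6% and 18.9% of all genes tested. Nr1h4, the bile acid receptor FXR, rose from 30.9 ± 8.37 to 62.3 ± 10.6 RPKM (± SD, 3 libraries each, log2 fold change 1.30, limma, adjusted p = 0.0306). Nr1h3, the oxysterol receptor LXR alpha, fell by 1.61 on the log2 scale (limma, adjusted p = 0.0240), Foxa2, a hepatocyte transcription factor, fell by 1.54 (limma, adjusted p = 0.0366) and Nr2f2, a nuclear receptor that binds direct repeats, fell by 1.70 (limma, adjusted p = 0.0325). The last 3 rested on 13 or fewer reads in each LYC library. Hnf4a, the nuclear receptor that drives many apolipoprotein promoters, was at -0.37 and passed neither rule.

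The second table and the Ribo-seq table hold nearly the same counts for most genes with at least 20 reads. With edgeR's quasi-likelihood test on its counts, the second table gave the same sign as the Ribo-seq table for all 10 genes. At an adjusted p below 0.05 it had 1 of 10 genes higher, against 10.9% of the 5921 genes tested, and 0 of 10 lower, against 7.84%. The gene was Apoc1, with 4431, 841 and 2987 counts in the libraries labelled HFD1, HFD2 and HFD3 and 556, 536 and 572 in LYC1, LYC2 and LYC3 (log2 fold change 0.87, edgeR, adjusted p = 0.0379, in a range of 1.74e-04 to 0.521 over its 10 alternatives). It lost that call without HFD1, HFD2, HFD3 or LYC1, where the log2 fold change was 0.75 to 0.94. Apart from Apoa2 and Apoc2, the counts of the 10 genes were 1 to 1.04 times the recovered reads of the matching Ribo-seq library. Apoc2 had 0.647 to 0.706 times those reads. The gene Lars2 alone held 6.68% to 15.0% of an HFD library's counts and 35.9% to 40.3% of a LYC library's, and with total counts as the scale all 10 log2 fold changes were negative.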

How the data were processed

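Ribo-seq libraries of liver, 3 HFD and 3 LYC, were analysed. Per the study's methods, the authors used cutadapt and bowtie2 for cleaning, STAR for alignment to GRCm38/mm10 and FANSE2 for gene quantification. Versions and annotation are not given in the sources used here. The authors deposited RPKM per gene, and for the libraries labelled mRNA also read counts. Groups follow the sample labels.

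The Ribo-seq values were RPKM, so limma on log2(RPKM / TMM factor + 1) was the main test, as planned for that case. Whole reads were recovered from RPKM steps at transcript lengths of the second table (11290 genes) or fitted lengths (4459 genes), which served TMM factors, filterByExpr and count tests as alternatives. A fitted length, and the reads with it, can be a multiple of the true one, as may be so for Apoa2. Of 25033 entries, 26 bore dates as names and 4 shared a name and were left out. On simulated data recovery gave 93.9% of 13885 values, and limma called 180 of 200 changed and 25 of 5581 unchanged genes. The simulated counts had 1 dispersion for all libraries and no length trend, so the limma rates may differ in the real data. The study's methods state a p below 0.001 and its results 0.01, and the latter was used.

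Named were the 10 genes, called genes of each other list (at most 6, else the 3 highest) and the 5 genes most like Apoc1. The members and lists were chosen with earlier results of these data known. Tested alternatives were scalings, pseudocounts, filters, thresholds, a length correction, a replicate block, edgeR, DESeq2 and omission of each library. Intervals cover the spread between libraries. Python 3.11.15 (pandas 2.3.3, numpy 2.4.6, matplotlib 3.10.9, scipy 1.17.1) and R 4.3.3 (DESeq2 1.42.0, edgeR 4.0.16, limma 3.58.1) were used.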

Additional observations from a re-analysis of the deposited data

How the results depend on the processing

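Over 17 alternatives for each of the 10 genes in the Ribo-seq table, 161 of the values kept direction and side of an adjusted p of 0.05, 3 passed it (Apoc1 with edgeR, with DESeq2 and at 20 reads in every library, which tests fewer genes) and 6 turned direction. These 6 were Apoa4 with total reads (-0.11), with totals without small non-coding RNA genes (-0.028) and without LYC3 (-0.25), Apoa5 without LYC2 (0.083), and Apoc2 with total reads (-0.076) and with the length trend removed (-0.32). So 1 of the 10 was higher at an adjusted p below 0.05 with edgeR, with DESeq2 and at 20 reads, in place of 0. The cause was not tested for the other changes given here. Leaving out each library left the number of the 10 called, or below that adjusted p, at 0 in each direction, and gave log2 fold changes of 0.42 to 0.72 for Apoa1, -0.29 to -0.11 for Apoa2, -0.25 to 0.45 for Apoa4, -0.92 to 0.083 for Apoa5, -0.77 to -0.17 for Apob, 0.74 to 0.95 for Apoc1, 0.079 to 0.36 for Apoc2, -0.25 to -0.15 for Apoc3, -0.98 to -0.48 for Apoe and -0.83 to -0.32 for Apoh.

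Among the 68 tested genes of the 5 other lists, 3 were called higher and 5 lower (6.9% and 6.4% of all genes tested). At a p below 0.001 these became 1 and 0, and the number lower became 0 at 20 reads, where none of the 5 was tested, 3 at a pseudocount of 10 and 8 with total reads. At an adjusted p below 0.05 there were 3 higher and 6 lower (6.45% and 5.07% of all genes tested). The higher became 6 with DESeq2, 6 at 20 reads, 5 with edgeR and 1 with total reads, and the lower became 3 at 20 reads, 2 without a filter, 3 at a pseudocount of 0.1, 3 with the replicate block and 10 with total reads. Leaving out each library gave 2 to 4 called higher, 3 to 7 called lower, 0 to 4 higher and 0 to 12 lower by adjusted p. By adjusted p, 0 were lower without HFD1, HFD2 or HFD3, and 0 were higher without HFD2 or HFD3.

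Replicate numbers did not pair the Ribo-seq libraries: the correlations of same-numbered deviations were 0.108, 0.0277 and 0.00834. With the replicate block the adjusted p of Apoc1 was 0.0755 (limma) and none of the 10 was called. In the second table the block left Apoc1 at 0.87 (edgeR, adjusted p = 0.103) and 0 of the 10 passing.

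In the second table, total counts in place of TMM turned Apoa1 to -0.47, Apoa4 to -0.76, Apoc1 to -0.21 and Apoc2 to -0.87, called 6 of the 10 lower, and put 7 lower and 0 higher at an adjusted p below 0.05. Leaving out each library gave -0.23 (without LYC3) to 0.55 for Apoa4 and -0.74 to 0.14 (without LYC2) for Apoa5. The 1 gene higher by adjusted p became 2 with DESeq2 and 0 without a filter, and 0 to 1 when each library was left out.

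Of the 10 genes Apoc2 had the fewest reads, 39 to 60 per LYC library.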
